A study of Mus musculus with 16 samples.

Results

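Genes of the unfolded protein response and the integrated stress response were followed in melanoma tumours given radiation, the compound QH-II-066, or both. The 38 genes were a list of endoplasmic reticulum chaperones, stress sensors and ATF4 target genes, matched by symbol among the 46078 genes of the count table, and all 38 passed the filter on low counts that left 16101 genes tested. They are described as a chaperone arm of 18 genes, 4 sensors (Atf6, Ern1, Eif2ak3 and Xbp1) and an ATF4 arm of 16 genes.

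RNA came from tumours of B16F10-GP cells, a pigmented mouse melanoma line, grown in 25% Matrigel on the flanks of female C57BL/6 mice 6 to 8 weeks old. The combined group, 5 Gy with QH-II-066, had 5 Gy of X-rays to the right flank in the morning of day 10, and the compound from that evening. The 5 Gy group had the irradiation alone, and the QH-II-066 group the compound alone from day 10. Both groups given the compound, whose samples the labels call Drug, were injected intraperitoneally with 10 mg/kg each day for 7 days. The control samples carry the label untreated, while the protocol describes vehicle alone, and both are taken as 1 group. Each of the 4 groups had 4 libraries. The sources used here do not say which flank was profiled or whether each library came from its own mouse, and p-values here gauge the spread among these libraries, which may be technical. The tumours are cell line grafts that also hold host cells, and in bulk RNA fewer cells of a type cannot be told apart from less RNA per cell.

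Protein that misfolds in the endoplasmic reticulum draws the chaperone Hspa5 (BiP) away from the sensors Ern1 (IRE1), Eif2ak3 (PERK) and Atf6. Ern1 splices the mRNA of Xbp1, and the spliced form of XBP1 together with cleaved ATF6 switches on chaperone and degradation genes through the ER stress response element (ERSE). Eif2ak3 and the other eIF2 alpha kinases slow translation while the Atf4 mRNA is translated more, and ATF4 acts on amino acid synthesis, amino acid transport and Ddit3 (CHOP) through C/EBP-ATF response elements (CARE). Gene counts of this kind show the amount of RNA, not the splicing of Xbp1 or the translation of Atf4.

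Promoter elements through which the arms are known to be controlled are shown first, because they divide the members by sequence and not by any level measured here. RefSeq promoter windows of GRCm38.p6, from 250 bases before to 50 bases after a start site, were found for 33 of the 38 genes. Hyou1, Manf, Atf6, Slc7a5 and Wars had none. On either strand, the ERSE letters, which are CCAAT, 9 bases of any kind and then CCACG, occurred in 8 of the 16 chaperone arm promoters (Calr, Canx, Creld2, Dnajc3, Hsp90b1, Hspa5, Pdia6 and Syvn1) and in 0.119% of the 32851 windows of all genes. Capitals mark the element in these stretches, written 5′ to 3′ in the direction of the gene:
Hspa5 (chr2:34772000-34772079, plus strand): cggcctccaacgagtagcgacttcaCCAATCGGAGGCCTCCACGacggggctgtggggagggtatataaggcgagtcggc
Hsp90b1 (chr10:86705525-86705664, minus strand): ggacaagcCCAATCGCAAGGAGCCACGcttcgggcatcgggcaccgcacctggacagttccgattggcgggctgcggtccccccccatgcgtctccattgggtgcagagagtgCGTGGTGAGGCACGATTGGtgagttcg
Calr (chr8:84847042-84847121, minus strand): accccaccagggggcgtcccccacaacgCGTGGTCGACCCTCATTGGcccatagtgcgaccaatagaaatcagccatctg
Creld2 (chr15:88819496-88819575, plus strand): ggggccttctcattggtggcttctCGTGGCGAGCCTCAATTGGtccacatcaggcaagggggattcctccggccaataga
Syvn1 (chr19:6046496-6046575, plus strand): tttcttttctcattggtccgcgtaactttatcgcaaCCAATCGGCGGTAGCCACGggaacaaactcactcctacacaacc
In Calr and Creld2 the element reads on the opposite strand, and Hsp90b1 held a copy in each direction. The shorter ERSE-II, which is ATTGG, 1 base of any kind and then CCACG, was found in Herpud1 and Dnajb11 and in 0.0365% of all windows. The CARE letters TGATGNAA occurred in Aars, Asns, Chac1, Slc7a11 and Trib3. These are 5 of the 14 ATF4 arm genes with a window, against 4.51% of all genes with a window. Herpud1 held both a CARE match and ERSE-II, the pair of elements set in capitals in its line, and Slc7a11 held 2 CARE matches.
Herpud1 (chr8:94386309-94386398, plus strand): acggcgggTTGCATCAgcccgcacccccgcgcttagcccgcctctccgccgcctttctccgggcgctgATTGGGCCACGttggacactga
Asns (chr6:7693210-7693289, minus strand): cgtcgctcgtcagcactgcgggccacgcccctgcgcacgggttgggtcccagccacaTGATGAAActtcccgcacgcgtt
Slc7a11 (chr3:50443624-50443703, minus strand): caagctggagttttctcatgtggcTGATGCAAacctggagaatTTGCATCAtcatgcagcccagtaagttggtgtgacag
Chac1 (chr2:119351022-119351101, plus strand): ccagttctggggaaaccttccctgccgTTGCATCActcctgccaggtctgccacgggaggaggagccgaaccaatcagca
The letters CCACG, which are part of ERSE and ERSE-II, lay in 15 of 16 chaperone arm promoters and in 32.8% of all windows. They also lay in 9 of the 14 ATF4 arm genes with a window, against 35.5% of all genes with a window. A match of letters describes the window and is not a measured binding site.

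Total counts per library ran from 6994198 to 40799942, and replicate 4 of the combined group was the shallowest. The lowest count of any of the 38 genes in any library was 49, for Slc7a11. Transcripts of skin epithelium marked 5 libraries, namely combined replicates 2, 3 and 4 and 5 Gy replicates 2 and 4. The mean log2 level of 10 pigmentation genes, such as Pmel and Dct, lay between 9.20 and 9.87 in the 16 libraries, so the markers of the labelled melanoma were abundant in all of them. Levels below are CPM, the counts of a gene relative to the library total after scaling by trimmed mean of M values, and scores are means of log2(CPM + 0.5).

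Per length of merged exons, the 4 most abundant of the 38 genes were chaperones. Calr, a lectin chaperone of glycoproteins, averaged 538 RPKM, which is CPM per kilobase of exons, over the 16 libraries, and Hsp90b1 (GRP94), an HSP90 of the endoplasmic reticulum, averaged 441 RPKM. Pdia3 and Hspa5 followed with 334 and 329.7 RPKM. Atf4 averaged 251 RPKM, the highest level of the ATF4 arm. The sensors lay far lower than these genes on the same scale. Xbp1 averaged 42.8 RPKM, Atf6 10.1 RPKM, Eif2ak3 7.08 RPKM and Ern1 3.16 RPKM. Xbp1 still exceeded some genes of the chaperone arm, such as Hyou1 at 33.1 RPKM, and lay below others, such as Dnajb11 at 53.3 RPKM. Slc7a11, the cystine transporter subunit xCT, had the lowest level at 0.638 RPKM, while its partner Slc3a2 averaged 96.5 RPKM.

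**Figure D1:**
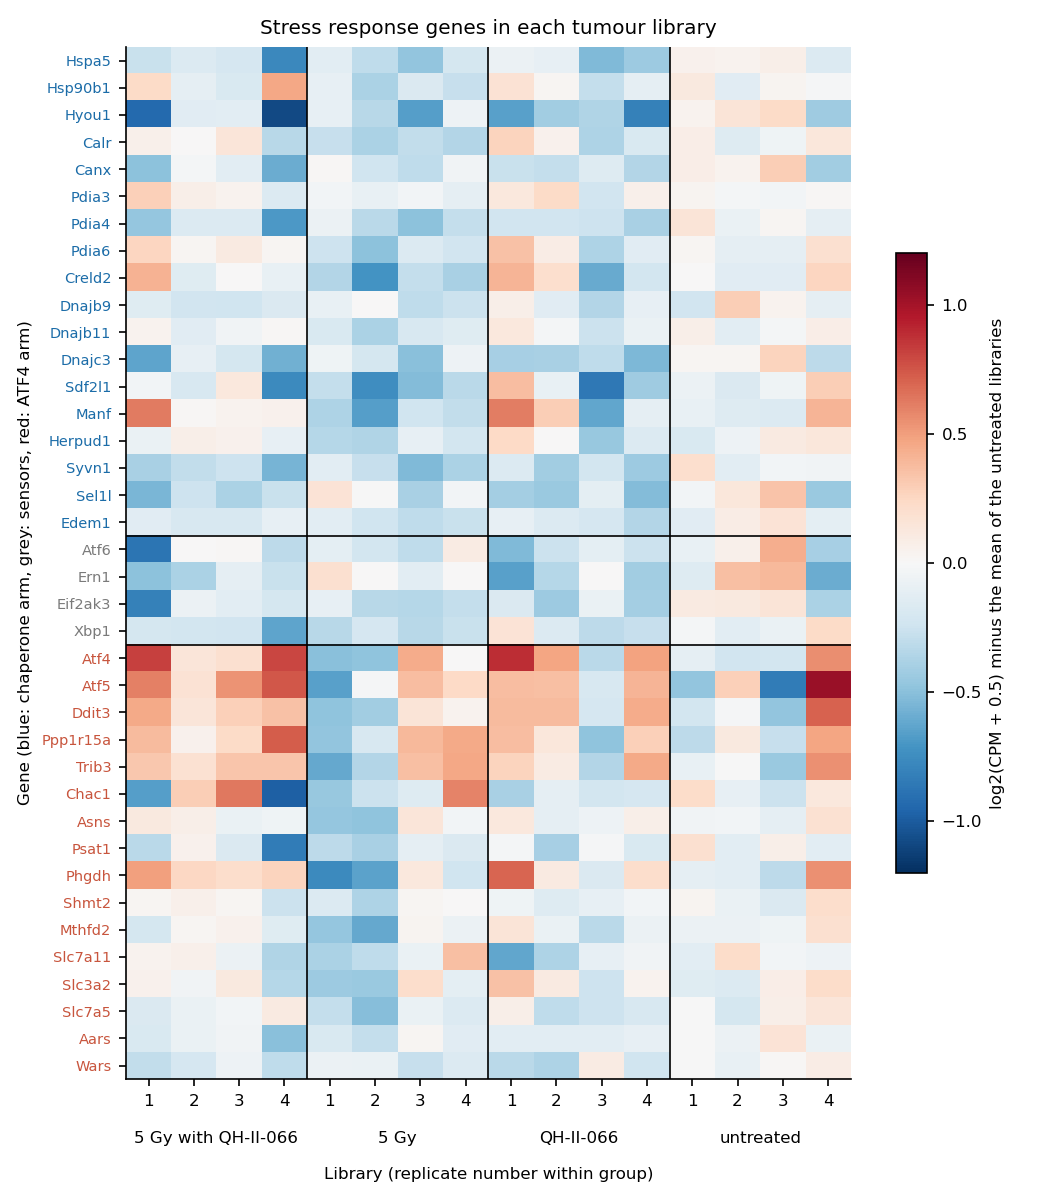
Each row is 1 of the 38 genes and each column 1 of the 16 libraries, coloured by log2(CPM + 0.5) minus the mean of the 4 untreated libraries. The chaperone rows are mostly blue in the 5 Gy libraries, and the rows from Atf4 to Trib3 share red and blue columns, with untreated replicate 4 red and QH-II-066 replicate 3 blue.

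In the chaperone arm, treated tumours lay on average slightly below untreated tumours, by amounts that did not pass in edgeR. The arm's score was 7.88 to 8.10 in the combined group, 7.85 to 8.04 in the 5 Gy group and 7.83 to 8.22 in the QH-II-066 group, against 8.16 to 8.25 in untreated tumours. The 4 combined libraries and the 4 5 Gy libraries all lay below the lowest untreated library, whereas QH-II-066 replicate 1 overlapped the untreated range. The spread among untreated libraries was small, with a mean of 8.19 ± 0.04 (SD, n = 4), and that among QH-II-066 libraries was the widest at 8.01 ± 0.18 (SD, n = 4).

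Hspa5 (ENSMUSG00000026864, chr2:34771970-34777547) is the central chaperone of the response and the usual marker of its activity (gene coordinates are those of mm10, as deposited). Its level was 1345, 1439, 1408 and 943 CPM in the combined libraries and 1475, 1309, 1164 and 1392 CPM in the 5 Gy libraries. It was 1539, 1504, 1121 and 1195 CPM in the QH-II-066 libraries, against 1671, 1666, 1692 and 1443 CPM in untreated libraries. All 4 combined libraries lay under the lowest untreated one, while 5 Gy replicate 1 and QH-II-066 replicates 1 and 2 lay above it. Relative to untreated tumours, Hspa5 had a log2 fold change of -0.33 ± 0.15 in the combined group, -0.28 ± 0.15 in the 5 Gy group and -0.27 ± 0.15 in the QH-II-066 group (SE; edgeR adjusted p = 0.299, 0.425 and 0.546 in that order). The 95% interval in the combined group ran from 0.635-fold to 0.992-fold.

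Hyou1 (ENSMUSG00000032115, chr9:44379490-44392369), a nucleotide exchange factor for Hspa5, had the lowest log2 fold change of the arm in both groups given the drug. It stood at 155, 269, 271 and 139.6 CPM in combined libraries, 276, 235, 188 and 283 CPM in 5 Gy libraries and 188, 221, 231 and 169 CPM in QH-II-066 libraries, against 305, 329, 347 and 221 CPM in untreated libraries. Untreated replicate 4 was far below the other untreated libraries and overlapped every treated group. The log2 fold change of Hyou1 from untreated tumours was -0.52 ± 0.22 in the combined group, -0.29 ± 0.22 in the 5 Gy group and -0.57 ± 0.22 in the QH-II-066 group (SE; edgeR adjusted p = 0.298, 0.6 and 0.546 in that order).

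Sdf2l1 (ENSMUSG00000022769, chr16:17130138-17132383), a small partner of the co-chaperone Dnajb11, had the lowest value of the arm after irradiation alone. Its CPM were 82.3, 73.8, 91.8 and 49.6 with radiation and drug, 68.9, 49.9, 58.5 and 67.1 with radiation, 109, 79.3, 46.3 and 62.6 with the drug and 80.0, 74.8, 81.2 and 104 without treatment. The 4 5 Gy libraries lay below all 4 untreated ones, and the QH-II-066 libraries straddled them, with replicate 1 above and replicates 3 and 4 below every untreated library. Set against untreated tumours, Sdf2l1 had a log2 fold change of -0.19 ± 0.23 in the combined group, -0.47 ± 0.23 in the 5 Gy group and -0.19 ± 0.23 in the QH-II-066 group (SE; edgeR adjusted p = 0.649, 0.353 and 0.705 in that order).

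Dnajb9 (ERdj4; ENSMUSG00000014905, chr12:44205897-44210068), a co-chaperone of Hspa5 that restrains Ern1, varied little. Combined libraries held 27.7, 26.0, 25.8 and 27.1 CPM, 5 Gy libraries 28.9, 30.7, 24.7 and 25.6 CPM, QH-II-066 libraries 32.2, 27.8, 24.0 and 28.6 CPM and untreated libraries 26.0, 37.7, 31.6 and 28.5 CPM. Every treated group overlapped the untreated range. Compared with untreated tumours, the log2 fold change of Dnajb9 was -0.22 ± 0.13 in the combined group, -0.17 ± 0.13 in the 5 Gy group and -0.14 ± 0.13 in the QH-II-066 group (SE; edgeR adjusted p = 0.355, 0.588 and 0.624 in that order).

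Herpud1 (ENSMUSG00000031770, chr8:94386438-94395377) belongs to the machinery that sends misfolded proteins to degradation. Combined tumours had 73.9, 81.9, 81.1 and 72.9 CPM, 5 Gy tumours 61.7, 60.5, 72.9 and 67.1 CPM, QH-II-066 tumours 92.0, 78.4, 56.7 and 69.8 CPM and untreated tumours 68.6, 75.1, 84.3 and 85.7 CPM. The combined libraries fell within the untreated range, all above the highest 5 Gy library, though only by a margin of under 1 CPM. Relative to untreated tumours, Herpud1 had a log2 fold change of -0.02 ± 0.13 in the combined group, -0.26 ± 0.13 in the 5 Gy group and -0.08 ± 0.13 in the QH-II-066 group (SE; edgeR adjusted p = 0.95, 0.379 and 0.786 in that order).

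Pdia3 (ERp57; ENSMUSG00000027248, chr2:121413775-121438687) forms disulfide bonds in glycoproteins held by Calr and Canx, and had the highest log2 fold change of the arm after irradiation alone. Its levels were 1260.0, 1091, 1070.3 and 922 CPM in the combined group, 1014, 973, 1013 and 964 CPM in the 5 Gy group, 1129.9, 1216, 885 and 1081 CPM in the QH-II-066 group and 1061, 1021, 1015 and 1048 CPM in the untreated group. All 4 5 Gy libraries lay just under the lowest untreated library, a step of less than 1 CPM, and the groups given the drug spread on both sides. The log2 fold change of Pdia3 from untreated tumours was 0.07 ± 0.12 in the combined group, -0.06 ± 0.12 in the 5 Gy group and 0.06 ± 0.12 in the QH-II-066 group (SE; edgeR adjusted p = 0.759, 0.824 and 0.832 in that order).

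Manf (ENSMUSG00000032575, chr9:106838312-106891979), a factor that the stressed endoplasmic reticulum secretes, had the highest log2 fold change of the arm in both groups given the drug. Combined libraries gave 373, 245, 249.8 and 251 CPM, 5 Gy libraries 188, 153, 206 and 198 CPM, QH-II-066 libraries 371, 298, 157 and 225 CPM and untreated libraries 228, 218, 216 and 323 CPM. Replicate 1 of the combined group and replicate 4 of the untreated group stood above the rest of their groups, and the 4 5 Gy libraries lay below all untreated libraries. Set against untreated tumours, Manf had a log2 fold change of 0.18 ± 0.23 in the combined group, -0.40 ± 0.23 in the 5 Gy group and 0.09 ± 0.23 in the QH-II-066 group (SE; edgeR adjusted p = 0.655, 0.454 and 0.861 in that order). Its exons share 146 bases with the opposite-strand gene Dcaf1, and the counting used no strand, so fragments from those bases cannot be assigned to one of the pair.

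The other 11 genes of the arm were Hsp90b1, Calr and Canx, which hold folding proteins and glycoproteins, the disulfide isomerases Pdia4 and Pdia6 with Creld2, the Hspa5 co-chaperones Dnajb11 and Dnajc3, and Syvn1, Sel1l and Edem1 of the degradation pathway. Their log2 fold changes from untreated tumours ran from -0.39 for Sel1l to 0.12 for Hsp90b1 in the combined group. In the 5 Gy group they ran from -0.44 for Creld2 to -0.08 for Sel1l, and in the QH-II-066 group from -0.42 for Dnajc3 to 0.00 for Pdia6. Sel1l thus stood at opposite ends of these 11 genes in the combined and 5 Gy groups. Of the exon bases of Hsp90b1, 10.3% overlap an opposite-strand gene, 1810014B01Rik.

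**Figure D2:**
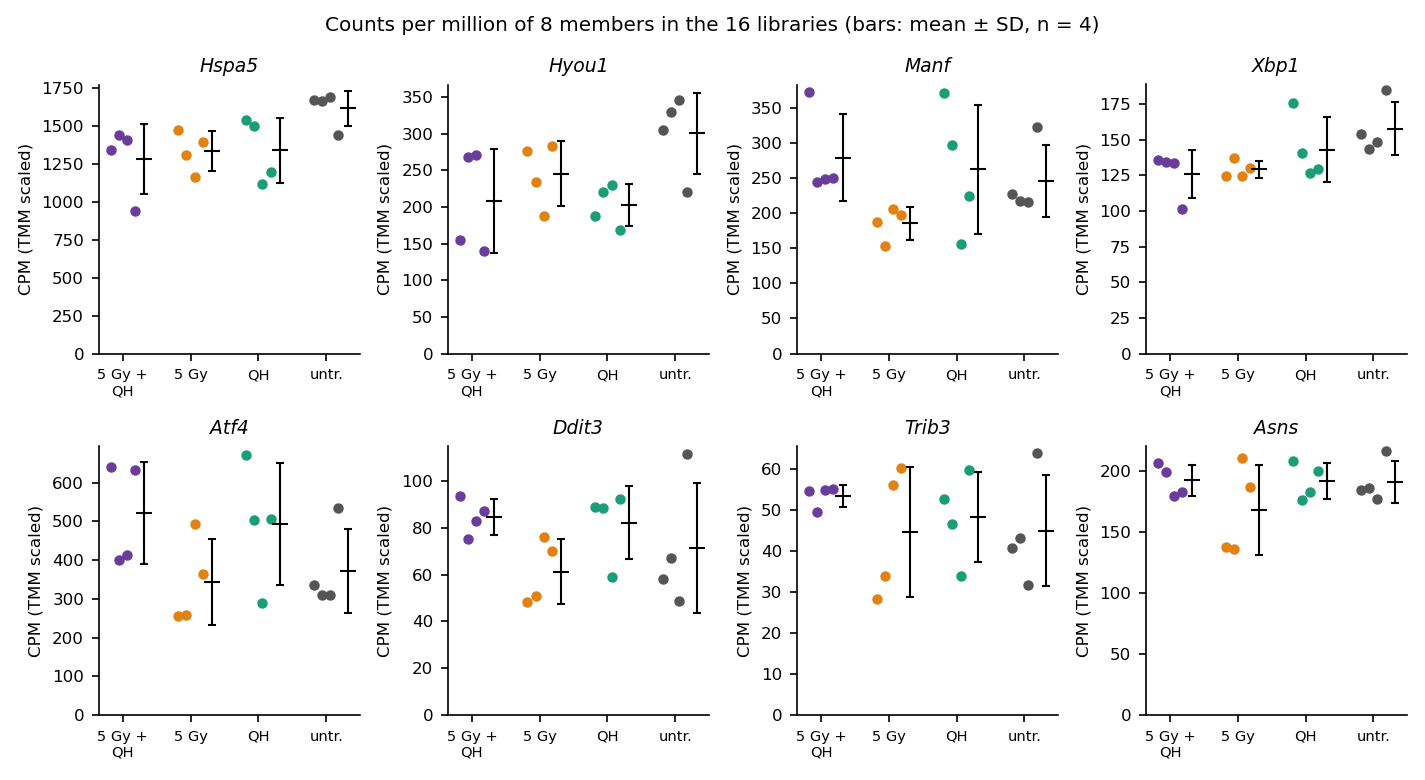
CPM of 8 of the 38 genes in each library (points), with the mean ± SD of each group of 4 libraries beside them, in the order 5 Gy with QH-II-066, 5 Gy, QH-II-066 and untreated. For Hspa5 the group means are 1284, 1335, 1339.6 and 1618 CPM in that order, and for Atf4 the libraries of each group spread widely around their mean.

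After irradiation alone, all 18 chaperone arm genes lay below untreated tumours on average. The median log2 fold change of the arm was -0.27, against -0.08 over all genes tested, of which 61.8% were negative too. No member passed an adjusted p of 0.05 in edgeR, where 1.26% of all genes tested did, and DESeq2 and limma-voom also called 0 of the 38. At an unadjusted p under 0.05, 7 members were lower in 5 Gy tumours (Calr, Creld2, Dnajb11, Edem1, Pdia4, Syvn1 and Xbp1), against 2.81% of all genes that were lower by this rule, and 0 members were higher, against 12.3% of all genes. In 8 members (Calr, Creld2, Dnajb11, Manf, Pdia3, Pdia6, Sdf2l1 and Xbp1) the 4 5 Gy libraries lay below all 4 untreated libraries, against 3.13% of all genes. In 0 members they lay above, against 5.97%. Syvn1, the ubiquitin ligase HRD1 of the degradation machinery, had the smallest p of the 38 here and is named for that after its values were seen, at -0.33 ± 0.12 (SE; edgeR adjusted p = 0.148). Creld2, which has disulfide isomerase activity, had -0.44 ± 0.19 and Calr -0.33 ± 0.14 on the same scale. Without the 5 libraries that held skin transcripts, which leaves replicates 1 and 3 of the 5 Gy group, the median of the arm was -0.24, all 18 genes were still negative, and 0 members had an unadjusted p under 0.05 in edgeR, against 0.873% of all genes lower by this rule. The count of 7 moved with single libraries, and so did the share of all genes lower by this rule. It was 3 without 5 Gy replicate 1, 2 or 4 or untreated replicate 1, against 0.96% to 2.19% of all genes. Without untreated replicate 3 or 4 it was 4, against 2.08% and 3.88%. Without each of the others it was 7 or 8, against 2.93% and 5.07%. With no filter on low counts it was 2, against 0.98%, and with the stricter filter 4, against 2.15%. With the 2 groups alone it was 3, against 1.71%, and with the skin score in the model 1, against 1.06%.

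Several cell type markers moved with this comparison. All 10 fibroblast and matrix genes and all 10 macrophage and monocyte genes of the marker lists were tested, and none was at 0 in any untreated library. The fibroblast and matrix score was 6.62 to 7.54 in 5 Gy tumours, against 4.40 to 5.34 in untreated tumours, and the macrophage and monocyte score was 5.90 to 6.88 against 4.43 to 5.48. In the combined group and the QH-II-066 group the fibroblast and matrix score was 5.09 to 6.57 and 4.94 to 6.06, which overlapped the untreated range. Among markers of plasma cells, which are rich in chaperones, 7 of 10 were tested, and 2 of the 10 were at 0 in some untreated library. Their score was 2.405 to 3.30 against 1.27 to 2.97, and the groups overlapped. Mzb1 averaged 0.332 CPM in 5 Gy tumours and 0.448 CPM in untreated tumours, and Jchain averaged 2.52 CPM in 5 Gy tumours and 1.80 CPM in untreated tumours. The adipocyte score was 3.03 to 4.58 in 5 Gy tumours, against 0.26 to 2.80 in untreated tumours, and the endothelial score was 4.02 to 4.76 against 3.15 to 3.89. All 8 genes of each list were tested. Of the adipocyte genes 5 were at 0 in some untreated library, and of the endothelial genes 0 were. The skeletal muscle score was -0.37 to 7.82 in 5 Gy tumours, against -0.56 to 3.52 in untreated tumours, and these ranges overlapped. Of its 10 genes 9 were tested, and 3 of the 10 were at 0 in some untreated library. The score of the 10 pigmentation genes was 9.20 to 9.498 in 5 Gy tumours, below the 9.65 to 9.87 of untreated tumours. Their part in the values of the chaperone arm was not tested.

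With QH-II-066 alone the arm's median log2 fold change from untreated tumours was -0.16, against 0.01 over all genes tested. Of the arm, 15 of 18 genes were negative, against 47.9% of all genes. The edgeR test called 0 of the 38 members and 0% of all genes. At an unadjusted p under 0.05, 6 members were lower with the drug, all of the chaperone arm (Dnajc3, Edem1, Hyou1, Pdia4, Sel1l and Syvn1), against 5.03% of all genes, and 0 were higher, against 3.14%. In either direction 8.17% of all genes passed this rule. Pdia4, Syvn1 and Aars had all 4 drug-treated libraries below all 4 untreated libraries, against 1.55% of all genes, and 0 members had them above, against 1.37%. Dnajc3 (p58IPK), a co-chaperone that inhibits Eif2ak3, was at -0.42 ± 0.15 (SE; edgeR adjusted p = 0.546). With 1 library left out, the count of members lower at an unadjusted p under 0.05 ran from 1 without QH-II-066 replicate 4, against 1.34% of all genes, to 10 without untreated replicate 4, against 14.2%. It was 2 without untreated replicate 3, against 0.721%, and 3 without QH-II-066 replicate 2 or untreated replicate 2, against 2.29% and 2.25%. Without each of the others it was 4 to 6, against 2.08% to 11.3%. DESeq2 called 0 members. The weighted limma-voom fit called 13 of the 38 members here, and 4647 of the 16101 genes tested (2760 lower and 1887 higher). Of these members, Canx, Dnajc3, Edem1, Eif2ak3, Ern1, Hspa5, Hyou1, Pdia4, Sel1l, Syvn1 and Wars were lower and Atf4 and Ddit3 higher. That fit weighted the libraries from 0.313 for untreated replicate 4 to 2.94 for QH-II-066 replicate 4, with 0.501 and 0.531 for QH-II-066 replicates 3 and 1. The part of these weights in the calls was not tested.

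In the combined group the arm's median was -0.17, against -0.00 over all genes tested, and 13 of 18 genes were negative, against 50.3% of all genes. Again 0 of the 38 members and 0% of all genes were called by edgeR, and DESeq2 and limma-voom called 0 members. By an unadjusted p under 0.05, 7 members were lower (Dnajc3, Hspa5, Hyou1, Pdia4, Sel1l, Syvn1 and Xbp1), against 8.8% of all genes, and 0 were higher, against 7.44%. Hspa5, Pdia4, Syvn1 and Xbp1 had all 4 combined libraries below all 4 untreated libraries, against 1.69% of all genes, and 0 members had them above, against 2.53%. The 7 lower members became 3 without combined replicate 1 or 4 or untreated replicate 3, against 2.84%, 3.65% and 1.71% of all genes. They were 4 without untreated replicate 2, against 5.34%, and 9 without untreated replicate 4, against 17.1%. Without combined replicate 2 they were 10, against 14.2%, and with the 2 groups alone 2, against 3.21%. With the skin-bearing libraries left out, only replicate 1 of the combined group remained, which the fit assumes to vary like the other groups. The arm's median was then -0.11, with 11 of 18 genes negative.

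**Figure D3:**
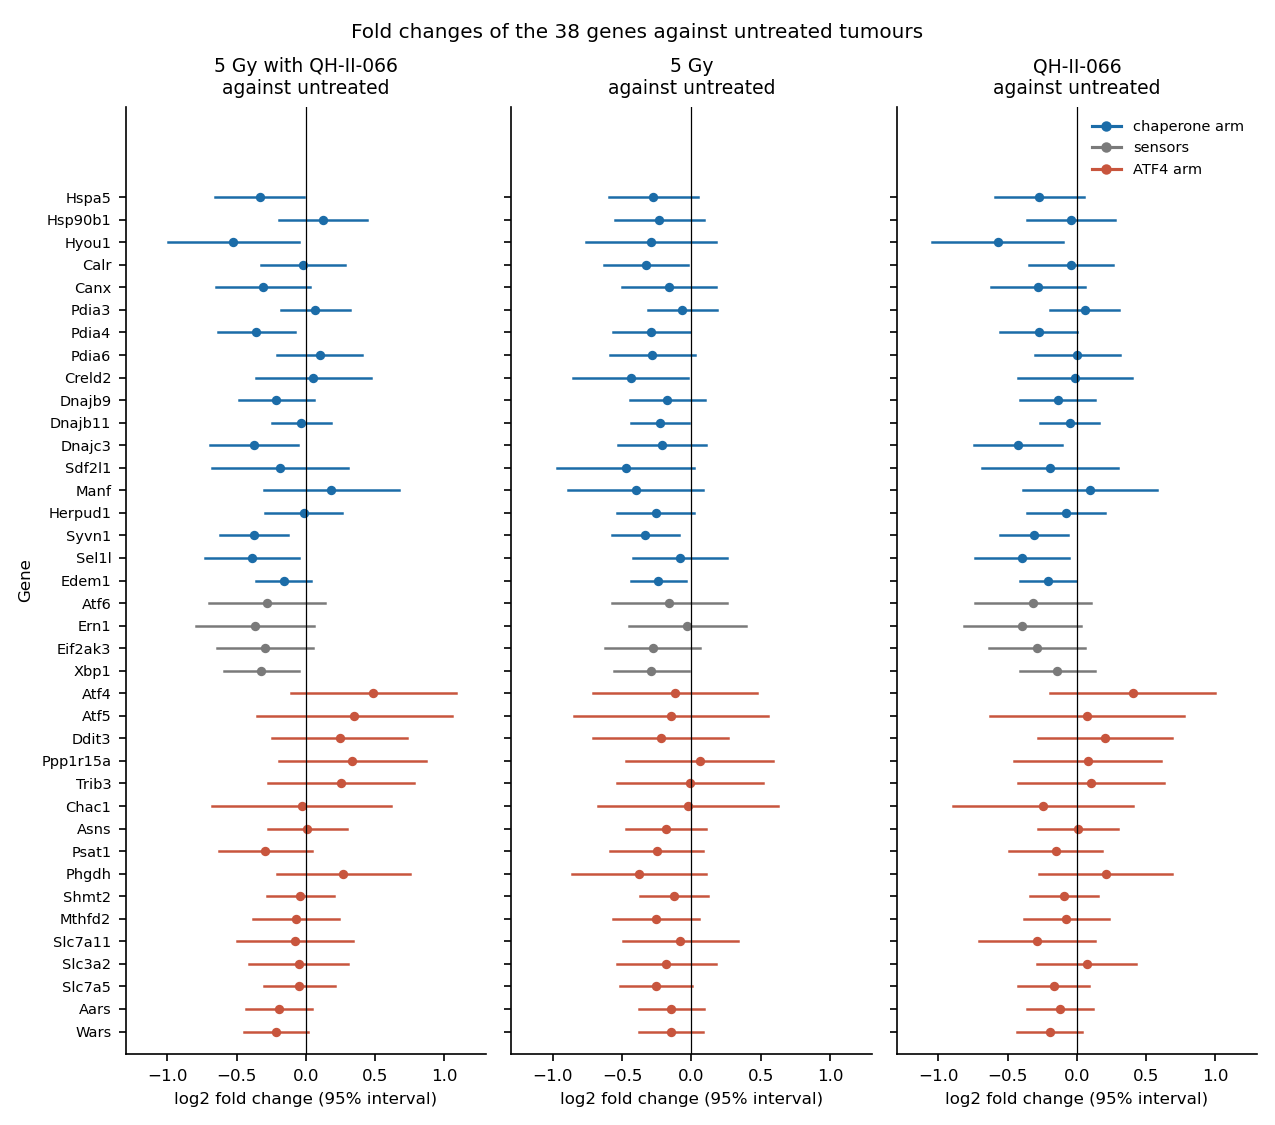
Log2 fold change from untreated tumours of the 38 genes (points) with 95% intervals (bars) from the edgeR model, for 5 Gy with QH-II-066, 5 Gy and QH-II-066, n = 4 libraries per group. After 5 Gy the 18 chaperone arm points lie left of 0, with a median of -0.27, and the intervals of the genes from Atf4 to Trib3 are among the widest and span 0 in the 3 panels.

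Both arms were also divided by their promoter elements. After irradiation alone, the median for the 8 genes with ERSE was -0.28 on the log2 scale, and that of the 8 with a window but no ERSE was -0.23. These medians were -0.17 and -0.17 in the combined group, and with QH-II-066 they were -0.16 and -0.16. Among the genes of the printed elements, Creld2 had 0.05, Hsp90b1 0.12 and Syvn1 -0.37 in the combined group, where the arm ran from -0.52 for Hyou1 to 0.18 for Manf. In the ATF4 arm, the median of the 5 genes with CARE was -0.03 in the combined group, -0.08 in the 5 Gy group and -0.12 in the QH-II-066 group, and that of the 9 with a window but no CARE was 0.25, -0.18 and 0.07. Between the combined group and the 5 Gy group these medians were 0.00 and 0.27. These are descriptions with no test.

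Among the sensors, all 4 had negative log2 fold changes from untreated tumours in each treated group. Of all genes tested, 50.3% were negative in the combined group, 61.8% in the 5 Gy group and 47.9% in the QH-II-066 group. Xbp1 (ENSMUSG00000020484, chr11:5520659-5525893), the transcription factor activated by Ern1, was at 136, 134, 134 and 101 CPM in the combined libraries and 125, 137, 125 and 130.4 CPM in the 5 Gy libraries. It was at 176, 140.4, 127 and 129.6 CPM in the QH-II-066 libraries, against 154, 144, 149 and 185 CPM in untreated libraries. No combined or 5 Gy library reached the lowest untreated one, and QH-II-066 replicate 1 was the exception among drug-treated libraries in lying above 3 of the 4 untreated libraries. Compared with untreated tumours, the log2 fold change of Xbp1 was -0.32 ± 0.13 in the combined group, -0.29 ± 0.13 in the 5 Gy group and -0.14 ± 0.13 in the QH-II-066 group (SE; edgeR adjusted p = 0.298, 0.293 and 0.62 in that order). Ern1 and Atf6 had -0.37 and -0.28 in the combined group, -0.03 and -0.16 in the 5 Gy group, and -0.39 and -0.32 in the QH-II-066 group. For Eif2ak3 the values were -0.30, -0.28 and -0.29 in the same order, and edgeR called none of these changes.

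The ATF4 arm behaved differently from library to library and did not separate the groups. Its score was 6.76 to 6.92 in the combined group, 6.37 to 6.89 in the 5 Gy group and 6.60 to 6.92 in the QH-II-066 group, against 6.61 to 7.09 in untreated tumours. All 4 ranges overlapped, and the highest score of the 16 libraries belonged to untreated replicate 4. With all libraries, no member of the arm had an unadjusted p under 0.05 against untreated tumours in edgeR in any treated group. The exceptions lay in other fits. Limma-voom called Atf4, Ddit3 and Wars with QH-II-066, in a fit that called 4647 of the 16101 genes tested. Without untreated replicate 4, edgeR gave 4 of the 38 members a higher level at an unadjusted p under 0.05 in the combined group, against 14.3% of all genes. In the QH-II-066 group it gave 2, against 10.7%.

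Atf4 (ENSMUSG00000042406, chr15:80255184-80257540), the transcription factor of the integrated stress response, varied widely within groups. It stood at 639.8, 399.9, 414 and 633 CPM in the combined libraries, 257, 259, 494 and 364 CPM in the 5 Gy libraries and 673, 504, 289 and 506 CPM in the QH-II-066 libraries, against 336, 309, 311 and 535 CPM in untreated libraries. Combined replicates 1 and 4, QH-II-066 replicate 1 and untreated replicate 4 were the highest, while the other 3 untreated libraries lay between 309 and 336 CPM. Relative to untreated tumours, Atf4 had a log2 fold change of 0.48 ± 0.28 in the combined group, -0.12 ± 0.28 in the 5 Gy group and 0.40 ± 0.28 in the QH-II-066 group (SE; edgeR adjusted p = 0.347, 0.869 and 0.558 in that order). Its 95% interval in the combined group ran from 0.926-fold to 2.12-fold.

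Ddit3 (CHOP; ENSMUSG00000025408, chr10:127290774-127296288), a transcription factor of stress-induced death, followed the same libraries. Its CPM were 93.4, 75.3, 83.0 and 87.1 in the combined group, 48.4, 50.8, 75.9 and 70.1 in the 5 Gy group, 88.9, 88.5, 59.0 and 92.5 in the QH-II-066 group and 58.3, 67.2, 48.8 and 112 in the untreated group. Untreated replicate 4 held the highest level of all 16 libraries and untreated replicate 3 nearly the lowest, so the untreated range spanned every treated library but 5 Gy replicate 1. The log2 fold change of Ddit3 from untreated tumours was 0.25 ± 0.23 in the combined group, -0.22 ± 0.23 in the 5 Gy group and 0.20 ± 0.23 in the QH-II-066 group (SE; edgeR adjusted p = 0.539, 0.696 and 0.688 in that order). Of its exon bases, 3.97% overlap the opposite-strand gene Mars.

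Trib3 (ENSMUSG00000032715, chr2:152337422-152344032), a pseudokinase that dampens ATF4 signalling, was at 54.7, 49.5, 54.8 and 55.1 CPM with radiation and drug, 28.4, 33.9, 56.2 and 60.3 CPM with radiation, 52.7, 46.7, 34.0 and 59.8 CPM with the drug and 40.9, 43.3, 31.8 and 63.9 CPM without treatment. The combined libraries were tightly grouped, with a mean of 53.5 ± 2.71 CPM, and the 5 Gy libraries were split between a low and a high pair, with 44.7 ± 15.9 CPM (SD, n = 4 each). Set against untreated tumours, Trib3 had a log2 fold change of 0.25 ± 0.25 in the combined group, -0.01 ± 0.25 in the 5 Gy group and 0.10 ± 0.25 in the QH-II-066 group (SE; edgeR adjusted p = 0.564, 0.99 and 0.859 in that order).

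Ppp1r15a (GADD34; ENSMUSG00000040435, chr7:45522916-45526268) recruits the phosphatase that restores translation. Combined libraries had 35.6, 28.2, 32.02 and 45.3 CPM, 5 Gy libraries 19.5, 23.7, 35.6 and 37.4 CPM, QH-II-066 libraries 35.2, 29.9, 19.2 and 33.1 CPM and untreated libraries 21.7, 29.5, 22.3 and 37.95 CPM. The groups overlapped, and 5 Gy replicate 1 and QH-II-066 replicate 3 were the lowest. Compared with untreated tumours, the log2 fold change of Ppp1r15a was 0.33 ± 0.25 in the combined group, 0.06 ± 0.25 in the 5 Gy group and 0.08 ± 0.25 in the QH-II-066 group (SE; edgeR adjusted p = 0.447, 0.929 and 0.9 in that order). It was the only member with a positive value after irradiation alone, where 37 of 38 were negative.

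Together with Atf5, an ATF4-related transcription factor, these regulators had medians of 0.33 in the combined group, -0.12 in the 5 Gy group and 0.10 in the QH-II-066 group, as log2 fold changes from untreated tumours. All 5 were positive in both groups given the drug and 4 of 5 were negative after irradiation alone, but edgeR called none, and their SE of 0.23 to 0.33 were among the widest of the 38 genes. Their score was 6.14 to 6.59 in the combined group, 5.46 to 6.34 in the 5 Gy group and 5.69 to 6.46 in the QH-II-066 group, against 5.55 to 6.67 in untreated tumours, whose range held all combined and QH-II-066 libraries.

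Chac1 (ENSMUSG00000027313, chr2:119351229-119354381), an enzyme that breaks down glutathione and a sensitive ATF4 target, did not follow the other regulators. It was at 12.2, 24.2, 30.6 and 9.68 CPM in combined libraries, 14.2, 16.3, 17.49 and 29.8 CPM in 5 Gy libraries, 14.8, 18.1, 16.7 and 16.9 CPM in QH-II-066 libraries and 22.9, 18.3, 16.3 and 21.49 CPM in untreated libraries. Combined replicates 2 and 3 were high and replicates 1 and 4 low, the reverse of Atf4. Relative to untreated tumours, Chac1 had a log2 fold change of -0.03 ± 0.31 in the combined group, -0.02 ± 0.30 in the 5 Gy group and -0.25 ± 0.30 in the QH-II-066 group (SE; edgeR adjusted p = 0.961, 0.977 and 0.715 in that order). Without replicate 3 of the combined group the first of these values was -0.34.

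The ATF4 arm also holds genes of amino acid synthesis and transport. Asns (ENSMUSG00000029752, chr6:7675169-7693254), asparagine synthetase, was at 207, 199, 179 and 183 CPM in the combined libraries, 137, 136, 211 and 186 CPM in the 5 Gy libraries, 208, 176, 183 and 200.1 CPM in the QH-II-066 libraries and 184, 186, 177 and 216 CPM in the untreated libraries. Replicates 1 and 2 of the 5 Gy group lay below all other libraries, and the rest overlapped. The log2 fold change of Asns from untreated tumours was 0.01 ± 0.14 in the combined group, -0.19 ± 0.14 in the 5 Gy group and 0.01 ± 0.14 in the QH-II-066 group (SE; edgeR adjusted p = 0.97, 0.588 and 0.987 in that order).

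Phgdh (ENSMUSG00000053398, chr3:98313170-98339990), the first enzyme of serine synthesis, had the lowest log2 fold change of the arm after irradiation alone. Its CPM were 295, 248, 242 and 252 in the combined group, 123, 134, 229 and 177 in the 5 Gy group, 340.3, 225, 186 and 242 in the QH-II-066 group and 194, 192, 169 and 306 in the untreated group. The 5 Gy group held the lowest pair of libraries, and replicate 1 of the QH-II-066 group and replicate 4 of the untreated group were the highest. Set against untreated tumours, Phgdh had a log2 fold change of 0.27 ± 0.23 in the combined group, -0.38 ± 0.23 in the 5 Gy group and 0.21 ± 0.23 in the QH-II-066 group (SE; edgeR adjusted p = 0.493, 0.488 and 0.676 in that order).

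Psat1 (ENSMUSG00000024640, chr19:15904678-15947337) catalyses the next step of that pathway and had the lowest log2 fold change of the arm in the combined group. Its levels were 160.4, 208, 178 and 112 CPM in combined tumours, 161, 154, 186 and 178 CPM in 5 Gy tumours, 198, 153, 199.6 and 177 CPM in QH-II-066 tumours and 229, 184, 211 and 184 CPM in untreated tumours. Replicate 4 of the combined group was the lowest of the 16 libraries, and every treated group overlapped the untreated range. Compared with untreated tumours, the log2 fold change of Psat1 was -0.29 ± 0.16 in the combined group, -0.25 ± 0.16 in the 5 Gy group and -0.15 ± 0.16 in the QH-II-066 group (SE; edgeR adjusted p = 0.33, 0.517 and 0.664 in that order).

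Slc7a11 (ENSMUSG00000027737, chr3:49892526-50443614) imports cystine in exchange for glutamate and had the lowest log2 fold change of the arm with QH-II-066 alone. Its CPM were 9.82, 9.99, 9.04 and 7.29 in the combined group, 7.22, 7.62, 9.01 and 12.4 in the 5 Gy group, 6.03, 7.28, 8.86 and 9.23 in the QH-II-066 group and 8.69, 11.2, 9.31 and 9.11 in the untreated group. All groups overlapped at these low levels. Relative to untreated tumours, Slc7a11 had a log2 fold change of -0.08 ± 0.20 in the combined group, -0.08 ± 0.20 in the 5 Gy group and -0.29 ± 0.20 in the QH-II-066 group (SE; edgeR adjusted p = 0.838, 0.875 and 0.557 in that order).

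The remaining members of the arm were the mitochondrial folate enzymes Shmt2 and Mthfd2, the amino acid transporter subunits Slc3a2 and Slc7a5, and the tRNA synthetases Aars and Wars. Their log2 fold changes from untreated tumours ran from -0.22 to -0.04 in the combined group, from -0.26 to -0.12 in the 5 Gy group and from -0.20 to 0.07 in the QH-II-066 group. Over the 16 genes of the arm the medians were -0.04, -0.15 and -0.03 in that order of groups, against -0.00, -0.08 and 0.01 over all genes tested. Negative values were found in 9 of 16 genes in the combined group, 15 of 16 in the 5 Gy group and 8 of 16 in the QH-II-066 group. Over all genes tested the negative shares were 50.3%, 61.8% and 47.9% in the same order.

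Addition of QH-II-066 to radiation was examined by comparing the combined group with the 5 Gy group. The median log2 fold change was 0.10 for the chaperone arm and 0.19 for the ATF4 arm, against -0.06 over all genes tested. The test in edgeR, DESeq2 and limma-voom called 0 members, and edgeR called 0% of all genes. At an unadjusted p under 0.05, 7 members were higher in the combined group (Atf4, Calr, Creld2, Hsp90b1, Manf, Pdia6 and Phgdh), against 11.6% of all genes higher by this rule, and 0 were lower, against 7.9%. This count fell to 1 without 5 Gy replicate 2 or without combined replicate 1, against 6.66% and 6.1% of all genes. It was 4 without 5 Gy replicate 4, against 8.33%, and 5 to 8 without each of the others, against 6.44% to 15.2%. It was also 1 without the skin-bearing libraries, against 4.45% of all genes. Phgdh had 0.65 ± 0.23, Atf4 0.60 ± 0.28 and Manf 0.59 ± 0.23 (SE; edgeR adjusted p = 0.209, 0.252 and 0.216 in that order). In 6 members (Creld2, Dnajb11, Herpud1, Manf, Pdia6 and Phgdh) all combined libraries lay above all 5 Gy libraries, against 4.45% of all genes, and in 0 they lay below, against 3.97%. The signs differed within the chaperone arm, where 10 of 18 genes were positive while Sel1l had -0.31 and Hyou1 -0.23.

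Addition of radiation to QH-II-066 was examined by comparing the combined group with the QH-II-066 group. Between the combined group and the QH-II-066 group the medians were 0.02 for the chaperone arm and 0.06 for the ATF4 arm, against -0.02 over all genes tested. None of the 38 members had an unadjusted p under 0.05 in edgeR, against 3.65% of all genes (0.882% lower and 2.77% higher). None was called by edgeR, DESeq2 or limma-voom, and edgeR called 0% of all genes. In no member were the libraries of the groups apart, against 0.621% of all genes with the combined libraries below and 1.29% with them above. The 95% intervals of all 38 members lay within a 2-fold difference, and those of 32 within 1.5-fold.

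The interaction asks whether the difference of the combined group from the 5 Gy group departs from that of the QH-II-066 group from the untreated group. It was positive in all 38 members, with medians of 0.28 in the chaperone arm, 0.20 in the ATF4 arm and 0.03 over all genes tested, of which 45.5% were negative. No member passed in edgeR, where 0% of all genes did, and DESeq2 and limma-voom called 0 members. At an unadjusted p under 0.05, Edem1, a lectin of the degradation pathway, and Slc7a5 were higher, at 0.29 ± 0.13 and 0.38 ± 0.17 (SE; edgeR adjusted p = 0.708 and 0.702), against 1.56% of all genes. None was lower, against 5.4% of all genes, so 6.96% of all genes passed this rule in either direction. The count of higher members was 10 without QH-II-066 replicate 1, against 3.48% of all genes. Without each of the other libraries it was 0 to 2, against 0.85% to 2.04%. The count of positive members was 34 with no filter on low counts, 33 in limma-voom and 31 without the skin-bearing libraries, and it lay between 33 and 38 when each library was left out in turn. The 38 values share the same 16 libraries, so they are not independent of each other.

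Tested for any difference among the 4 groups at once, 0 of the 38 members and 0% of all genes passed in edgeR, DESeq2 called 0 members, and Dnajc3, Sel1l and Syvn1 had an unadjusted p under 0.05, against 17.8% of all genes.

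Within groups, Atf4 and several other genes of its arm moved together from library to library, while Chac1 did not. After the group means were subtracted, Atf4 correlated with Phgdh over the 16 libraries at r = 0.90 (Spearman's rho 0.90; permutation test, adjusted p = 0.00034 for both). Its r was 0.87 with Ppp1r15a (rho 0.83; permutation adjusted p = 0.00289 and 0.00542) and 0.84 with Ddit3 (rho 0.85; permutation adjusted p = 0.0023 and 0.00374). It was 0.78 with Trib3 (rho 0.84; permutation adjusted p = 0.00793 and 0.00542), 0.70 with Atf5 (rho 0.71; 0.00329 and 0.00795) and 0.72 with Asns (rho 0.74; 0.00929 and 0.028). With the 2 libraries farthest from the median of Atf4 left out, these r were 0.87, 0.83, 0.79, 0.71, 0.67 and 0.70 in the same order. With Chac1 the r was -0.22 (rho -0.06; permutation adjusted p = 0.469 and 0.833) and with Hspa5 it was -0.19 (rho -0.14; permutation adjusted p = 0.567 and 0.701). The family held 17 relations, over which p was adjusted.

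The chaperones were less uniform. Hspa5 correlated with Hyou1 at r = 0.64 (rho 0.51; permutation adjusted p = 0.0199 and 0.0687), and the r was 0.70 with the 2 libraries farthest from its median left out. With Sdf2l1 its r was 0.72 (rho 0.70; permutation adjusted p = 0.0309 and 0.033), and 0.47 without the outermost 2 libraries. For Xbp1, Herpud1 and Dnajb9 the r were 0.59, 0.40 and 0.31 (rho 0.62, 0.41 and 0.34; permutation adjusted p of r = 0.113, 0.237 and 0.237), and without the outermost 2 libraries they were 0.24, 0.14 and 0.28. Over all pairs, the median r was 0.20 for the 153 pairs within the chaperone arm, 0.42 for the 120 pairs within the ATF4 arm and 0.06 for the 288 pairs across the arms. Positive pairs numbered 103, 96 and 150 in that order, and within the ATF4 arm r ran from -0.66 to 0.93.

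The variation of Atf4 and Ddit3 went with gene length. For each library, log2 CPM relative to the mean of the libraries was regressed on the log2 length of 9880 well-expressed genes, so that a negative slope means relatively more counts on short genes. The slope was -0.09 ± 0.12 in the combined group, 0.11 ± 0.11 in the 5 Gy group, -0.09 ± 0.16 in the QH-II-066 group and 0.07 ± 0.17 in untreated tumours (SD, n = 4 each). Untreated replicate 4, at -0.18, and QH-II-066 replicate 3, at 0.13, lay on the other side of 0 from the rest of their groups, as 5 Gy replicate 3 and combined replicate 2 did by less, at -0.05 and 0.02. After group means were subtracted, the slope correlated with Atf4 at r = -0.93 (rho -0.89; permutation test, adjusted p = 0.00034 for both) and with Ddit3 at r = -0.88 (rho -0.88; permutation adjusted p = 0.00113 and 0.000453). It correlated with Hyou1 at r = 0.75 (rho 0.81; permutation adjusted p = 0.00476 and 0.00377), and its r with Hspa5 was 0.11 (rho 0.13; permutation adjusted p = 0.702 and 0.701). These r were -0.91, -0.79, 0.73 and 0.21 without untreated replicate 4 and QH-II-066 replicate 3. Those 2 libraries lay farthest from the median of the slope after centring. The slope is computed from the same levels, so short genes tend to run against it, and long genes with it, by construction. The permutation p is set against no correlation, not against other genes of like length, so it shows nothing particular to these members.

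**Figure D4:**
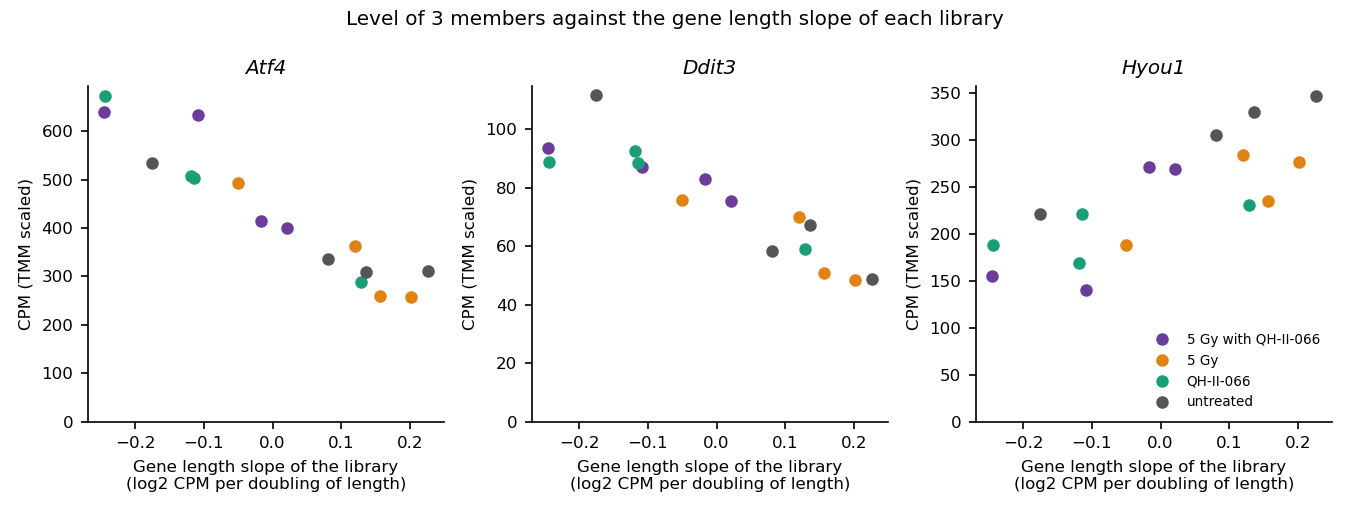
CPM of Atf4, Ddit3 and Hyou1 against the gene length slope of the library (log2 CPM per doubling of gene length), 1 point per library and 16 in all, coloured by group. Atf4 and Ddit3 tend to be higher, and Hyou1 lower, where the slope is more negative, and untreated replicate 4 lies at -0.18, apart from the other 3 untreated libraries.

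Atf4, Ddit3 and Dnajb9 were among the 7 members with under 2000 bases of merged exons, and Hyou1, Hspa5 and Sel1l among the 14 with 4000 or more. Across the 38 members, the log2 fold change correlated with log2 length at r = -0.53 in the combined group, 0.23 in the 5 Gy group and -0.60 in the QH-II-066 group, each against untreated tumours. Over the 9952 tested genes with a mean log2 CPM above 3 these r were -0.27, 0.02 and -0.46. Between the combined group and the 5 Gy group r was -0.62 over the members and -0.48 over those genes. Genes are not independent replicates, so no test is given. With QH-II-066 alone the median of the short members was -0.01 on the log2 scale, and that of the long members was -0.29.

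**Figure D5:**
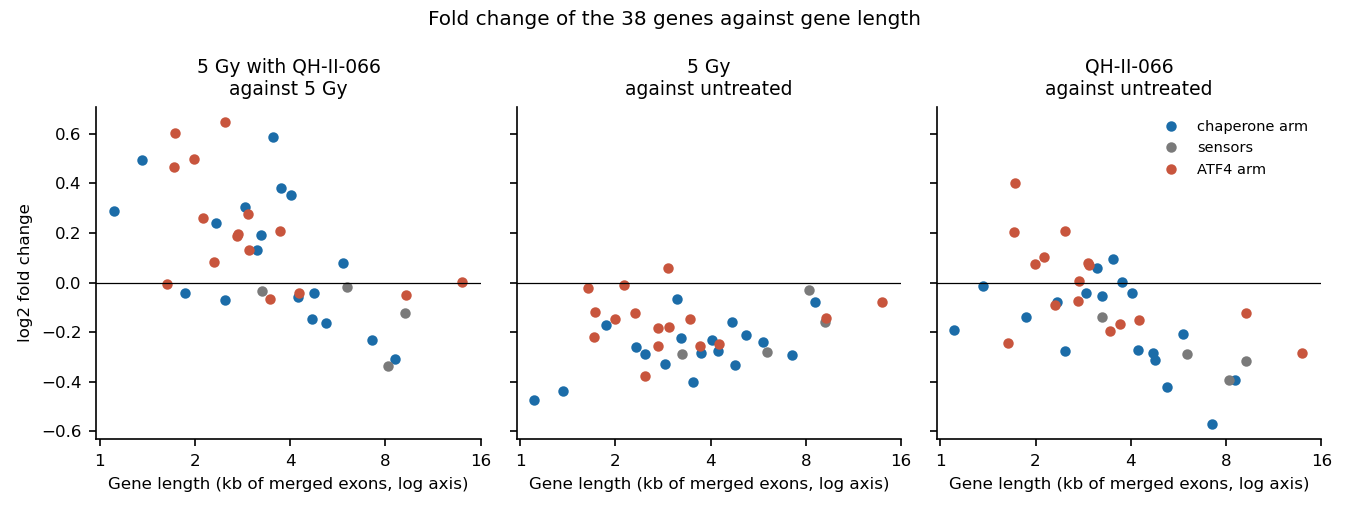
Log2 fold change of the 38 genes against their length in kilobases of merged exons on a log axis, for 5 Gy with QH-II-066 against 5 Gy, 5 Gy against untreated and QH-II-066 against untreated. Longer genes lie lower in the first and last panels (r = -0.62 and -0.60 over the 38 genes), and not in the middle panel (r = 0.23).

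With the slope added to the model, a setting chosen after the data had been seen, the log2 fold change of Atf4 from untreated tumours was 0.05 in the combined group and -0.06 in the QH-II-066 group, in place of 0.48 and 0.40. The median of the 5 ATF4 regulators was then 0.03 in the combined group, 0.06 in the 5 Gy group and -0.19 in the QH-II-066 group. The median of the chaperone arm was -0.14, -0.25 and -0.18 in the same order, all 18 genes stayed negative after irradiation alone, and 15 of the 38 members were lower there at an unadjusted p under 0.05, against 8.61% of all genes in this fit. The median of the ATF4 arm was -0.07, -0.12 and -0.14 in the same order, and with QH-II-066 all 16 of its genes were negative, in place of 8. For the 4 sensors the medians were -0.08, -0.23 and -0.08, in place of -0.31, -0.22 and -0.30. Between the combined group and the 5 Gy group the median of the ATF4 arm was 0.04 in place of 0.19, that of the regulators -0.02 in place of 0.47, and 1 member was higher at an unadjusted p under 0.05 in place of 7. In that fit 4.41% of all genes were higher by this rule. None was called by edgeR at an adjusted p under 0.05. The cause of the difference in slope between libraries was not tested.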

How the data were processed

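Tumour RNA was prepared by transcriptome capture, in which probes enrich coding fragments, per the labels' protocols, and sequenced on an Illumina instrument. STAR 2.4.1a, featureCounts, edgeR and mm10 are named in the submitters' processing notes. The deposited table holds counts, whole numbers of paired-end fragments on the exons of each gene that the authors obtained with featureCounts 1.6.0, per the file headers. No strand option was set, so a gene and an overlapping partner on the other strand are not told apart, and nothing was normalized. Gene length in the same table, in bases of merged exons, was used for RPKM and for the length analyses.

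Genes were kept by filterByExpr (16101 of 46078), scaled by trimmed mean of M values, and tested with edgeR 4.0.16 (robust quasi-likelihood, limma 3.58.1, R 4.3.3) in a group-means model of the 16 libraries. P-values are two-sided and adjusted by Benjamini-Hochberg over all genes tested, with a threshold of 0.05. Contrasts set each treated group against untreated, the combined group against each single treatment, and the interaction. The 95% intervals come from the same model. The steps were tested on simulated data. Scores used a pseudocount of 0.5 CPM, libraries with a skin score above 3 were taken as holding skin, and the length slope used genes with a mean log2 CPM above 3. Correlation p-values came from 100000 permutations.

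The 38 genes and the pathway and marker lists were chosen with earlier results of these data known. Full values are given for 10 preset genes and, per arm and comparison with untreated, for the genes with the highest and lowest log2 fold change, 17 in all. Alternatives were DESeq2 1.42.0, limma-voom with sample weights, other size factors, other filters on low counts, the compared groups alone, a block for the replicate number and leaving out each library. No pair of libraries held identical values, and log values of libraries within a group correlated at 0.929 to 0.991.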

Additional observations from a re-analysis of the deposited data

Results flagged for a closer look

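In 8 of 80 groups of 4 libraries, 1 library stood apart from the other 3, judged by whether its gap to the nearest of them, as a share of the range of the group, exceeded Dixon's 95% critical value. Chance alone sets apart about 1 in 20 groups, which is 4 of 80. The groups covered the 17 genes given in full and 3 further scores.

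In untreated tumours, replicate 4 was the lowest for Hspa5, at 1443 CPM, and the highest for Manf, at 323.1 CPM, and for Atf4, at 534.8 CPM. Its gene length slope of -0.18 was the lowest of the untreated libraries but did not pass this rule.

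In the combined group, replicate 1 was the highest for Manf, at 373.1 CPM. Replicate 4, the shallowest library, was the lowest for Xbp1, at 101.1 CPM, and for the chaperone arm score, at 7.876. Replicate 2 was the lowest for Trib3, at 49.46 CPM, in a group whose other libraries lay within 1 CPM of each other.

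In the QH-II-066 group, replicate 3 was the lowest for Ddit3, at 58.96 CPM.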

How the results depend on the processing

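No member was called by edgeR under other size factors, no filter, a stricter filter of at least 1 CPM in 8 libraries, the compared groups alone, or any of the 16 fits that left out 1 library, and DESeq2 called 0. The exception was limma-voom with sample weights, which called 13 members between QH-II-066 and untreated tumours. It was also far apart for all genes in that comparison, with 4647 called against 0 by edgeR and 13 by DESeq2; the cause was not tested. After 5 Gy alone, edgeR called 203 genes, DESeq2 1256 and limma-voom 802. The edgeR count was 0 without 5 Gy replicate 2 or untreated replicate 1, 2 or 3, 739 with the third 5 Gy library left out, 101 with the fourth left out and 22 without the skin-bearing libraries. In the combined group against untreated tumours, edgeR called 0 genes, DESeq2 214 and limma-voom 0. Against 5 Gy, edgeR called 0, DESeq2 130 and limma-voom 69, against QH-II-066 they called 0, 54 and 0, and for the interaction 0, 69 and 497. The test of any difference called 0 genes in edgeR and 1046 in DESeq2. With no filter on low counts, edgeR called 3 by that test, without combined replicate 4 it called 26, and without combined replicate 2 it called 12.

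With 1 library left out, the chaperone arm median between QH-II-066 and untreated tumours ran from -0.23 without QH-II-066 replicate 1 to -0.046 without QH-II-066 replicate 3, against -0.16 with all libraries. After 5 Gy alone that median stayed between -0.28 and -0.22. The ATF4 arm medians crossed 0 in the combined group (-0.05 without combined replicate 2, 0.03 without combined replicate 4) and in the QH-II-066 group (-0.08 without untreated replicate 1, 0.03 without untreated replicate 4). Between the combined and QH-II-066 groups the medians ran from -0.05 to 0.07 (chaperone arm) and -0.01 to 0.09 (ATF4 arm). The ATF4 arm median ran from -0.29 without 5 Gy replicate 3 to -0.09 without 5 Gy replicate 2 after 5 Gy alone, from 0.10 without 5 Gy replicate 2 to 0.29 without 5 Gy replicate 3 between the combined and 5 Gy groups, and from 0.10 without untreated replicate 4 to 0.33 without 5 Gy replicate 4 for the interaction.

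Fits with the replicate number as a block called 0 members in every comparison, and 154 genes after 5 Gy alone. No label says that equal numbers mark a shared animal, day or batch. Of 24 same-numbered pairs, 13 had a correlation of deviations over 0.1, and the range was -0.47 to 0.41. Of 16 libraries, 4 were closest to their own number. Whether the numbers pair the libraries was not tested.

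The fits without the skin-bearing libraries, with the gene length slope and with the skin score were chosen after seeing the data, and called 0 members. With the skin score, 17 of 18 chaperone arm genes were negative after 5 Gy. Across genes given in full, 98 of 952 values with 1 library left out and 77 of 1003 values under other settings changed sign, and 4 of those 1003 were called, all by limma-voom. Counts exceeded 100 in every library for 36 members, and the part of depth in these values was not tested. With 4 libraries a group, the intervals of 17 members in the combined group lay within 1.5-fold of untreated tumours, and those of the other members reached beyond it.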

Other observations

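Further genes of the pathway, from a list separate from the 38, showed no change called by edgeR, the only test given for them. Of 34 genes of protein folding, translocation and secretion in the endoplasmic reticulum, 33 were tested, and Derl3 was not. Their median log2 fold change from untreated tumours was -0.15 in the combined group, -0.15 in the 5 Gy group and -0.07 in the QH-II-066 group. At an unadjusted p under 0.05 in edgeR, 8 were lower and 1 higher in the combined group, 1 was lower and 0 higher in the 5 Gy group, and 5 were lower and 1 higher in the QH-II-066 group. Of all genes tested, 8.8% were lower and 7.44% higher in the combined group, 2.81% and 12.3% in the 5 Gy group, and 5.03% and 3.14% in the QH-II-066 group. The higher genes were Erlec1, a lectin of the endoplasmic reticulum, at 0.29 ± 0.14 in the combined group, and Cnpy2, at 0.43 ± 0.20 in the QH-II-066 group (SE; edgeR adjusted p = 0.302 and 0.546). Txndc11, a thioredoxin-domain protein of the endoplasmic reticulum, had -0.31 ± 0.10 in the combined group, -0.28 ± 0.10 in the 5 Gy group and -0.30 ± 0.10 in the QH-II-066 group (SE; edgeR adjusted p = 0.298, 0.177 and 0.546 in that order). Ero1lb, an oxidase that recharges disulfide isomerases, had -0.47 ± 0.17 in the combined group (SE; edgeR adjusted p = 0.298). These 3 comparisons share the untreated libraries. Between the combined group and the 5 Gy group, Sec24d, a coat protein of secretory vesicles, had -0.63 ± 0.19 and Fkbp11, a prolyl isomerase, had 0.90 ± 0.28 (SE; edgeR adjusted p = 0.209 for both).

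Of 32 further ATF4-linked genes, all tested, the medians were -0.03 in the combined group, -0.11 in the 5 Gy group and -0.00 in the QH-II-066 group. By the same rule, 4 were lower and 1 higher in the combined group, 0 lower and 1 higher in the 5 Gy group, and 4 lower and 1 higher in the QH-II-066 group, to be read against the same shares of all genes. Cebpb, a transcription factor, was the higher gene of the combined group, at 1.70 ± 0.72 (SE; edgeR adjusted p = 0.299). The tRNA synthetases Eprs and Iars had -0.28 ± 0.10 and -0.46 ± 0.17 in the combined group, and Aldh18a1, an enzyme of proline synthesis, had -0.47 ± 0.17 (SE; edgeR adjusted p = 0.298 for each). Vldlr, a lipoprotein receptor, had 2.03 ± 0.65 in the 5 Gy group and 1.41 ± 0.64 in the QH-II-066 group (SE; edgeR adjusted p = 0.115 and 0.546), and was the higher gene in both. Its levels were low, at 3.43 ± 2.29 and 2.23 ± 1.93 CPM in these groups and 0.838 ± 0.287 CPM in untreated tumours (SD, n = 4 each). The 6 further genes that control eIF2 alpha, such as the kinase Eif2ak4 and the phosphatase subunit Ppp1r15b, had medians of -0.21, -0.12 and -0.14 in the combined, 5 Gy and QH-II-066 groups.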
